A study of Mus musculus with 8 samples.

Results

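The genes described here are 10 transcription factor and early-response genes: the FOS family genes Fos, Fosb, Fosl1 and Fosl2, the JUN family genes Jun, Junb and Jund, and the early-response genes Egr1, Ier2 and Dusp1. They were taken by name from the 54446 genes counted in nuclear RNA of mouse embryonic stem cells. All 10 passed the filter on low counts, which kept 21782 genes. The cells carry a conditional knockout (CKO) of Mettl14 or of Mettl3, the partner proteins of the enzyme that writes N6-methyladenosine on RNA, and each knockout has control cells of its own. There are thus 4 groups of 2 libraries: the control and the CKO of the Mettl14 line, and the control and the CKO of the Mettl3 line. The strain of all is C57BL/6, and all cells were grown in serum with the cytokine LIF, the GSK3 inhibitor CHIR99021 and the MEK inhibitor PD0325901. The recombinase and its promoter, the deleted exons, the time since deletion, the number of clones behind each line and any feeder layer are not stated in the labels or notes used here. The labels do not say whether both libraries of a group stem from distinct cultures. P-values therefore reflect the spread between these libraries, which may be technical.

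FOS and JUN proteins carry a basic leucine zipper, through which they pair into the dimeric transcription factor AP-1. JUN proteins can pair with one another or with FOS proteins, whereas FOS proteins bind DNA stably only as partners of JUN. Many of these genes are immediate-early genes: growth factor, stress or ERK signals switch on their transcription within minutes, without new protein synthesis, through promoter-bound factors such as SRF with its ternary complex partners. The products then feed back on the signal, as DUSP1 does by removing phosphate from MAP kinases, and the transcripts are short-lived. In stem cell medium with a MEK inhibitor, the ERK branch of this input is held down.

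Promoter sequences of 3 members are shown because they hold letters of sites through which such signals are known to reach Fos, Jun and Dusp1. RefSeq (GRCm38.p6, the assembly called mm10) gave a promoter for 7 of the 10 members: Fos, Fosb, Fosl2, Jun, Junb, Jund and Dusp1. Each line below holds the 250 bases before the RefSeq start, 5′ to 3′ on the gene's strand, with matches to the searched motifs in capitals.
Fos, chr12:85473640-85473889, plus strand: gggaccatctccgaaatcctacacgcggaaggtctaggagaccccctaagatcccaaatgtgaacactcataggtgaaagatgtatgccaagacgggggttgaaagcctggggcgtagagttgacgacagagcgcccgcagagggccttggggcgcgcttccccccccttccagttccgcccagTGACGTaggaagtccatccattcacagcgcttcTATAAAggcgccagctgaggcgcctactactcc
Jun, chr4:95052223-95052472, minus strand: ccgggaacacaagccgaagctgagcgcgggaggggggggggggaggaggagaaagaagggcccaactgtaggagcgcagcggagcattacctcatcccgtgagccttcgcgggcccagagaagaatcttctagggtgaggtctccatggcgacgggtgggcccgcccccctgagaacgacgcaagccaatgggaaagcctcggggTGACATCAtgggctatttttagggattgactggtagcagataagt
Dusp1, chr17:26508473-26508722, minus strand: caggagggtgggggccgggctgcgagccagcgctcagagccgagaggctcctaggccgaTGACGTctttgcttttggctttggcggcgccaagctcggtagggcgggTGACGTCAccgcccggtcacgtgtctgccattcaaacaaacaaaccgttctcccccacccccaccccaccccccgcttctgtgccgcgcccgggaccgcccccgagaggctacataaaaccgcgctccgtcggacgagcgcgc
In Fos the capitals mark TGACGT, the core of the cyclic AMP response element, at 66 to 61 bases before the start, and the TATA box TATAAA at 33 to 28 bases before it. In Jun they mark TGACATCA, the variant AP-1 site, at 45 to 38 bases before the start. In Dusp1 they mark 3 matches of TGACGT, at 191 to 186, 143 to 138 and 141 to 136 bases before the start, of which the last pair overlap as the opposite strands of 1 palindrome. Both strands were searched, over the same 250 bases. TGACGT is held by 2 of the 7 members' promoters and by 6.47% of 32851 RefSeq promoters, TGACATCA by 1 member and 2.93%, and TATAAA by 1 member and 12.4%. The AP-1 site TGACTCA and the CArG box, the site of SRF, had no match in the 7 windows, and 4.46% and 1.47% of all promoters hold them. A match is a description of letters in this window, and the absence of one says nothing on sites further away.

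Of the 10 genes 3, Jun, Jund and Ier2, have 1 exon. In mm10 coordinates Fos lies at chr12:85473890-85477273 (plus strand), Fosb at chr7:19302696-19310051 (minus), Fosl1 at chr19:5447547-5455946 (plus) and Fosl2 at chr5:32135801-32157842 (plus). Jun lies at chr4:95049034-95052222 (minus), Junb at chr8:84974484-84978718 (minus) and Jund at chr8:70698949-70700616 (plus). Egr1 lies at chr18:34859823-34864984 (plus), Ier2 at chr8:84661331-84662852 (minus) and Dusp1 at chr17:26505590-26562128 (minus). The Dusp1 window printed above, chr17:26508473-26508722, lies within that span, since this gene model reaches further upstream than the RefSeq start. Exons of 5 members overlap those of a gene on the other strand: Fosl1 shares 1163 bases with Ccdc85b, Jund 877 with Gm11175, Jun 232 with Junos, Junb 173 with Prdx2 and Dusp1 11 with Ergic1. The strand setting of the read counting is not given, so reads in those stretches cannot be assigned to one gene with certainty. The shared stretch makes up much of the 2033 bases of exon of Fosl1 and of the 1668 of Jund. The values of both genes are uncertain for that reason as well.

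Total counts per library ran from 17235889 to 20086128. The labels were checked on the targeted genes: Mettl14 fell from a mean of 56.6 to 29.0 CPM (reads relative to the TMM-scaled library size) in Mettl14 CKO, and Mettl3 from 37.0 to 19.2 CPM in Mettl3 CKO. The check holds within a line only, since Mettl14 was also at 28.4 CPM in Mettl3 control and 29.2 in Mettl3 CKO. RNA of each targeted gene remained in its own CKO. All 10 embryonic stem cell markers were present in every group, with Pou5f1 at 559 CPM in Mettl14 control, 240 in Mettl14 CKO, 79.7 in Mettl3 control and 104 in Mettl3 CKO. Other stem cell markers had another order of groups. Utf1 was at 12.2, 6.45, 18.9 and 16.1 CPM in the same order, Sox2 was lowest in Mettl14 CKO, at 22.7, and Nanog was at 102 CPM in Mettl3 control and 79.2 in Mettl3 CKO. The libraries also held RNA of 16 genes fixed as markers of fibroblasts or feeder cells, whose summed level was 837.1 to 838.3 CPM in Mettl14 control, 1739 to 1743 in Mettl14 CKO, 6775 to 6978 in Mettl3 control and 8059 to 8159 in Mettl3 CKO. None of them was at 0 in any group, though the fibroblast proteoglycan gene Lum stayed between 0.128 and 0.399 CPM. The collagen genes Col1a1 (270, 338, 2710 and 3290 CPM in the same order of groups) and Col1a2 (184, 535, 1790 and 2140) made up the largest part of the fibroblast sum. The 10 markers of primitive endoderm summed to 965.1 to 972.3, 1563 to 1585, 2143 to 2171 and 2379 to 2390 CPM in the same order of groups, and the stem cell markers to 3127 to 3141, 2156 to 2168, 1204 to 1213 and 1151 to 1152 CPM. The matrix genes Sparc (684, 1120, 1430 and 1630 CPM) and Col4a1 (155, 321, 588 and 653) carried most of the endoderm sum. Gata4 and Gata6 stayed between 2.44 and 3.54 CPM, and Lama1 was lowest in Mettl3 CKO, at 54.9. The summed level of the 10 genes described here had the order of both the fibroblast and the endoderm sum, from 191.9 to 195.5, over 224.5 to 231.3 and 296.6 to 298.8, to 351.6 to 364.6 CPM. Taken singly, Fos, Fosb, Egr1, Jund and Ier2 had another order. Nor did every fibroblast marker keep it: Col3a1 was at 200 CPM in Mettl3 control and 180 in Mettl3 CKO. Acta2 (324 and 294), Col6a3 (18.2 and 16.8), Dcn (4.22 and 4.02) and Fap (0.876 and 0.399) were also lower in Mettl3 CKO. The part of other cell types in the results was not tested, and fewer cells of a type and less RNA per cell cannot be told apart in these bulk samples.

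Across both knockouts, Fosl2, Jun, Junb and Dusp1 rose, each by more in Mettl14 CKO than in Mettl3 CKO by its point estimate. The other members did not move in step. Ier2 fell in Mettl14 CKO, while Fos, Fosb and Egr1 fell and Jund rose in Mettl3 CKO. In Mettl14 CKO, 4 of 10 members rose and 1 fell, against 18.0% of all genes tested called higher and 22.4% called lower (40.4% in either direction). In Mettl3 CKO, 5 rose and 3 fell, against 15.1% and 5.78% (20.9% in either direction). DESeq2 called 2166 genes there in place of 4552, and 1 member lower (Fos), since it gave Fosb and Egr1 no adjusted p; the Egr1 fall missed the threshold in 4 further settings. The 2 knockout libraries did not overlap their controls for 6 of 10 members in the Mettl14 line, as for 68.1% of all genes, and for 10 of 10 in the Mettl3 line, against 56.8%. A gene was called where edgeR's quasi-likelihood test gave a Benjamini-Hochberg adjusted p under 0.05 over all 21782 genes. The members' median log2 fold change was 0.12 in Mettl14 CKO and 0.28 in Mettl3 CKO, and that of all genes was 0.03 in each. Calls are commoner among abundant genes: among those whose average log2 CPM was 3 or more, as Fosl2, Jun, Junb, Jund, Ier2 and Dusp1 have, 66.6% were called in Mettl14 CKO (25.7% higher, 40.9% lower) and 36.7% in Mettl3 CKO (29.6% higher, 7.05% lower). For genes with an average from 1 to 3, as Fos, Fosb, Fosl1 and Egr1 have, 31.4% were called in Mettl14 CKO (17.2% higher, 14.1% lower) and 9.24% in Mettl3 CKO (6.29% higher, 2.95% lower).

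**Figure D1:**
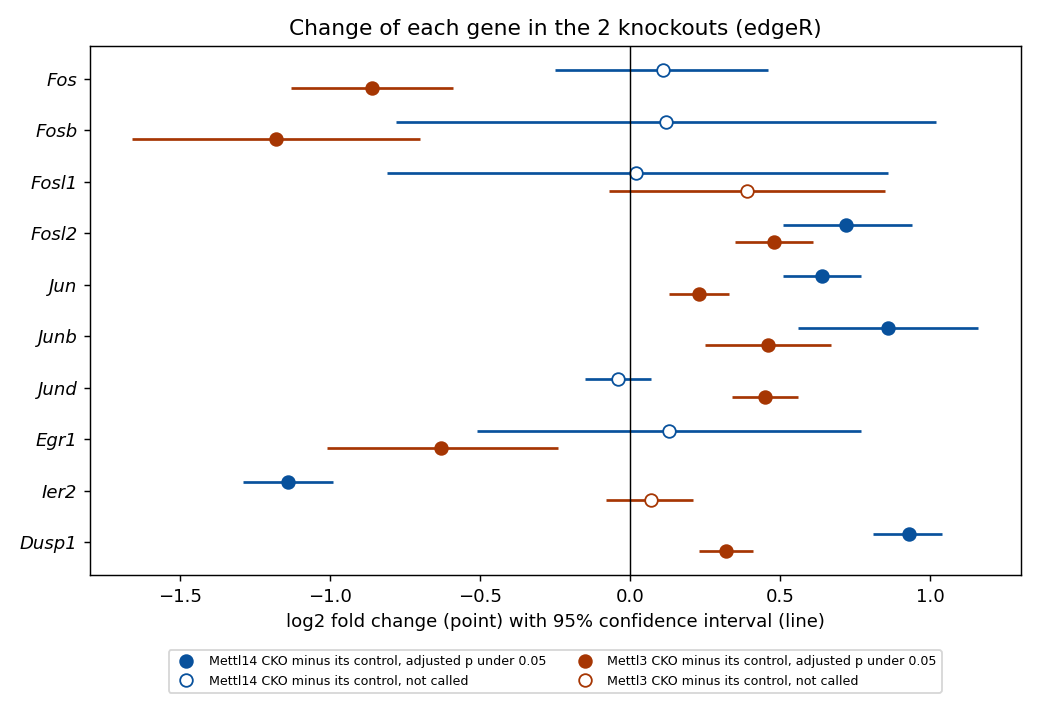
Change of each of the 10 genes in Mettl14 CKO and Mettl3 CKO against its own control, as the log2 fold change (x axis) with its 95% confidence interval; filled points passed the test at an adjusted p under 0.05. Fosl2, Jun, Junb and Dusp1 lie to the right of 0 in both knockouts, Ier2 lies at -1.14 in Mettl14 CKO only, and Fos, Fosb and Egr1 lie left of 0 in Mettl3 CKO.

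Of the FOS family, Fos itself encodes the best known partner of JUN. Its level was 4.29 and 5.27 CPM in the 2 Mettl14 control libraries, 5.41 and 4.91 in Mettl14 CKO, 12.1 and 12.5 in Mettl3 control, and 7.86 and 5.65 in Mettl3 CKO. The Mettl14 groups overlap, and both Mettl3 CKO libraries lie below both of their controls. Behind these levels stand 67 to 247 reads per library. In Mettl3 CKO Fos fell by 0.86 ± 0.14 on the log2 scale (SE; adjusted p = 1.75e-07), to 0.55 of the control level. In Mettl14 CKO the change was 0.11 ± 0.18 (95% interval -0.25 to 0.46; adjusted p = 0.678), and it turned to -0.05 without Mettl14 control replicate 1. The difference between the knockouts in their effect on Fos was 0.97 ± 0.23 (adjusted p = 0.000212).

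Fosb, whose product resembles FOS and is also made as a shorter splice form, was the least abundant member per length of transcript in every group, with means of 0.106 CPM per kilobase of exon in Mettl14 control, 0.115 in Mettl14 CKO, 0.791 in Mettl3 control and 0.35 in Mettl3 CKO. It had 5 and 16 reads in the Mettl14 control libraries and 9 and 18 in Mettl14 CKO, against 100 and 98 in Mettl3 control and 43 and 39 in Mettl3 CKO. As levels these are 0.32 and 1, 0.502 and 0.93, 4.92 and 4.96, and 2.28 and 2.08 CPM. The Mettl14 groups overlap and rest on few reads, while the Mettl3 groups are well apart. In Mettl3 CKO Fosb fell by 1.18 ± 0.24 on the log2 scale (adjusted p = 6.06e-05), the largest fall of a member there, to 0.443 of the control. In Mettl14 CKO its change of 0.12 ± 0.45 (interval -0.78 to 1.02; adjusted p = 0.865) had no settled direction, being -0.48 with Mettl14 control replicate 1 left out and -0.41 with Mettl14 CKO replicate 2 left out. The difference between the knockouts, 1.3 ± 0.52, passed narrowly (adjusted p = 0.0421). It ran from 0.66 to 2.3 over 14 alternative settings and was past the threshold in 6 of them. It missed the threshold when Mettl14 control replicate 1 (adjusted p = 0.401) or Mettl14 CKO replicate 2 (0.473) was left out, and without replicate 1 or 2 of Mettl3 control (0.0604 and 0.0628) or of Mettl3 CKO (0.052 and 0.0851).

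Fosl1 and Fosl2 encode the FOS-related antigens FRA1 and FRA2, which lack the strong activation domain of FOS. Fosl1 was at 0.832 and 0.753 CPM in the Mettl14 controls, 1.06 and 0.568 in Mettl14 CKO, 3.54 and 2.53 in Mettl3 control, and 4.04 and 3.95 in Mettl3 CKO. With 11 to 19 reads per library in the Mettl14 line, the Mettl14 groups overlap around 1 CPM and a change could not be resolved there (0.02 ± 0.42, interval -0.81 to 0.86, adjusted p = 0.97). That estimate was -0.04 with Mettl14 control replicate 2 left out, -0.47 with Mettl14 CKO replicate 1 left out, and below 0 also with RLE scaling and limma-voom. In Mettl3 CKO both Fosl1 values lie above both controls, but the change of 0.39 ± 0.23 (interval -0.07 to 0.85) was not called (adjusted p = 0.246).

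Fosl2 rose in both knockouts. Its level was 9.6 and 8.98 CPM in the Mettl14 controls, 14.5 and 16.1 in Mettl14 CKO, 38.7 and 40.1 in Mettl3 control, and 55 and 54.8 in Mettl3 CKO. The 4 groups do not overlap at any step, from 143 reads in the lowest library to 1035 in the highest. The rise was 0.72 ± 0.11 on the log2 scale in Mettl14 CKO (1.65-fold; adjusted p = 5.22e-09) and 0.48 ± 0.06 in Mettl3 CKO (1.39-fold; adjusted p = 5.1e-10). The 2 rises did not differ by the test of their difference (0.24 ± 0.13, interval -0.01 to 0.49, adjusted p = 0.138), though with upper-quartile scaling that difference was called (0.4, adjusted p = 0.00909).

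**Figure D2:**
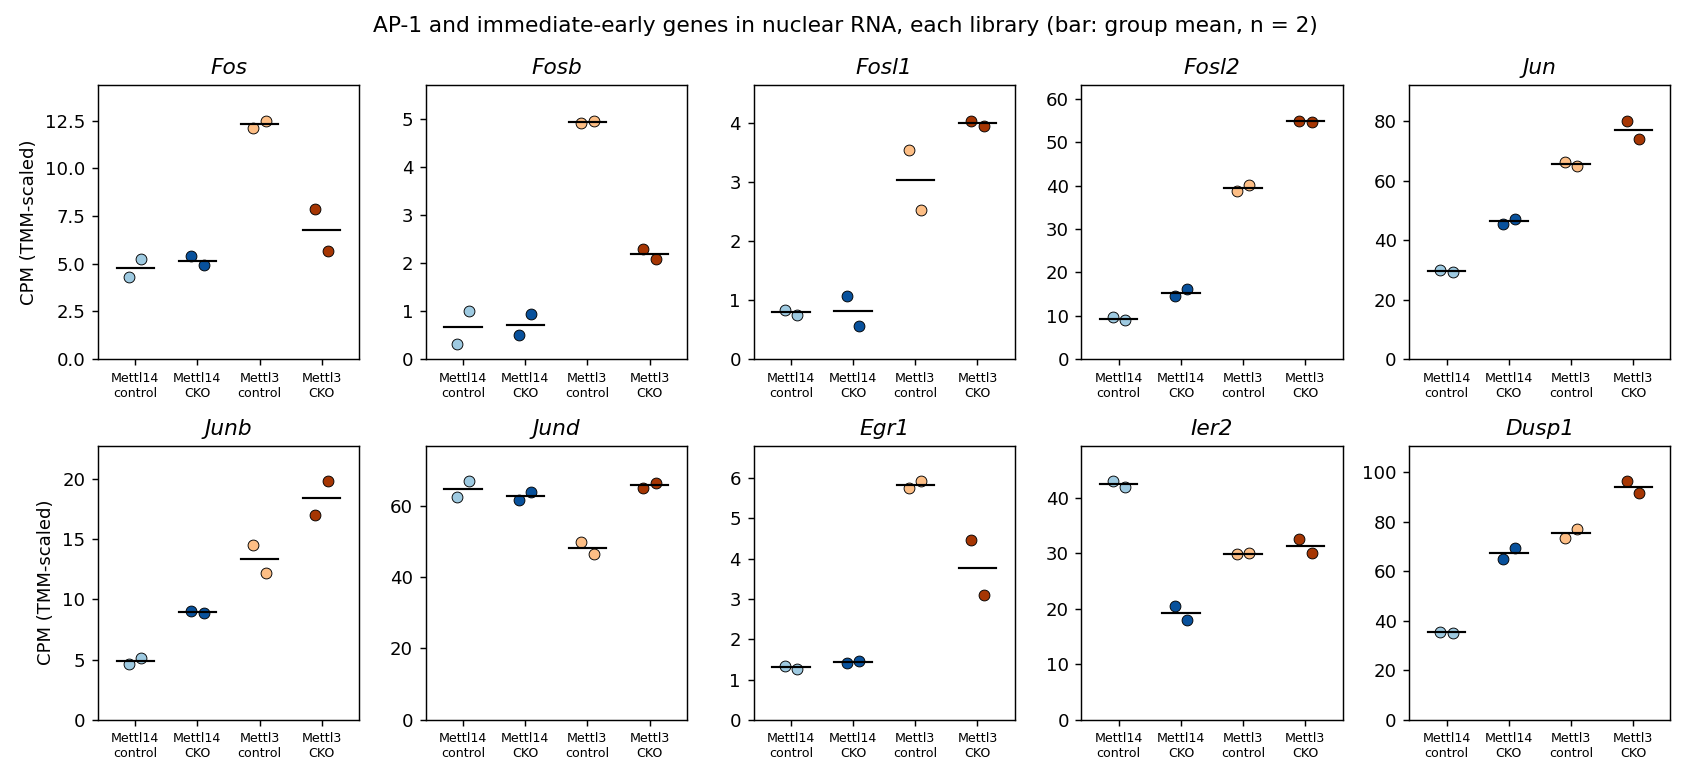
Level of each of the 10 genes in every library (TMM-scaled CPM, y axis from 0, 1 panel a gene), with points for the 2 libraries of each group and a bar at their mean. Fosl2, Jun, Junb and Dusp1 climb from Mettl14 control to Mettl3 CKO, whereas Fos, Fosb and Egr1 are highest in Mettl3 control, Ier2 is highest in Mettl14 control and Jund is lowest in Mettl3 control.

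The JUN family genes are of different kinds: Jun encodes the founding AP-1 activator, Junb a weaker activator that can oppose it, and Jund the member that cells make most steadily. Jun was at 30.1 and 29.4 CPM in the Mettl14 controls, 45.6 and 47.2 in Mettl14 CKO, 66.3 and 65 in Mettl3 control, and 80.2 and 74 in Mettl3 CKO. No 2 groups overlap. It rose by 0.64 ± 0.07 on the log2 scale in Mettl14 CKO (1.56-fold; adjusted p = 3.43e-16) and by 0.23 ± 0.05 in Mettl3 CKO (1.17-fold; adjusted p = 0.000205), where with upper-quartile scaling the change of 0.12 was not called (adjusted p = 0.0958). The rise was larger in Mettl14 CKO, by 0.41 ± 0.08 (adjusted p = 1.91e-05).

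Junb was at 4.67 and 5.15 CPM in the Mettl14 controls, 9.04 and 8.83 in Mettl14 CKO, 14.5 and 12.2 in Mettl3 control, and 17 and 19.8 in Mettl3 CKO. As for Jun, no groups overlap. It rose 1.82-fold in Mettl14 CKO (0.86 ± 0.15 on the log2 scale, adjusted p = 5.45e-07) and 1.38-fold in Mettl3 CKO (0.46 ± 0.11, adjusted p = 0.00035). The difference of those rises, 0.4 ± 0.19 (interval 0.03 to 0.77), was not called over all genes (adjusted p = 0.0903), but was called with upper-quartile scaling (0.56, adjusted p = 0.0142) and once Mettl3 control replicate 2 was left out (0.49, adjusted p = 0.0459). The opposite-strand neighbour Prdx2, a peroxiredoxin gene, changed by -0.08 (adjusted p = 0.15) and 0 (adjusted p = 0.998) in Mettl14 CKO and Mettl3 CKO, unlike Junb.

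Jund showed the reverse split between the lines. Its level was 62.3 and 66.8 CPM in the Mettl14 controls, 61.7 and 63.8 in Mettl14 CKO, 49.8 and 46.5 in Mettl3 control, and 64.9 and 66.5 in Mettl3 CKO. The other groups lie in 1 band of 61.7 to 66.8 CPM, with Mettl3 control below it. Jund rose by 0.45 ± 0.05 on the log2 scale in Mettl3 CKO (1.36-fold; adjusted p = 9.52e-12). In Mettl14 CKO the change was -0.04 ± 0.05 (interval -0.15 to 0.07; adjusted p = 0.588), and its sign turned with upper-quartile scaling (0.003) and without Mettl14 control replicate 2 (0.01). The effect of the Mettl14 knockout was lower than that of Mettl3 by 0.49 ± 0.08 (a difference of -0.49, adjusted p = 2.85e-08).

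Since a FOS protein needs a JUN partner, the balance within and between the families was described per kilobase of exon, with no test. Fos made up 55.7% and 60.6% of the FOS family in Mettl14 control, 52.3% and 50% in Mettl14 CKO, 44.2% and 46.1% in Mettl3 control, and 29.4% and 23.2% in Mettl3 CKO. Fosl2 took 30.3% and 25.1%, 34% and 39.8%, 34.2% and 36.1%, and 49.9% and 54.8% in the same order of libraries. Per kilobase, Fos was thus the most abundant FOS family transcript in the first 3 groups and Fosl2 in both Mettl3 CKO libraries, where the ratio of Fosl2 to Fos was 1.7 and 2.36, against 0.773 and 0.782 in their controls. That rank rests on the union exon length, 9680 bases for Fosl2 and 2352 for Fos, and the isoforms expressed are not known here. By CPM, Fosl2 was above Fos in every group, as at 39.4 against 12.3 in Mettl3 control. The summed FOS family level per kilobase stayed close within the Mettl3 line, at 11.7 and 11.5 in the controls and 11.4 and 10.3 in the CKO.

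Per kilobase of exon, the JUN family was dominated by Jund in every library. By CPM, Jun was above Jund in Mettl3 control (65.7 against 48.1) and Mettl3 CKO (77.1 against 65.7). Both rankings carry the uncertainty from the overlap of Jund with Gm11175 given above. The share of Jund per kilobase was 76.5% and 77.8% in Mettl14 control, 67% and 67.2% in Mettl14 CKO, 52.4% and 52% in Mettl3 control, and 54.5% and 55.6% in Mettl3 CKO. Jun supplied most of the remainder, 19.3% and 17.9%, 25.9% and 26%, 36.5% and 38.1%, and 35.2% and 32.4%. In Mettl14 CKO the shares of Jun and Junb (7.12% and 6.75%, against 4.16% and 4.34%) were both above the control at a lower share of Jund. The summed level per kilobase of the JUN family was that of the FOS family multiplied by 14.9 and 13.9 in Mettl14 control, 12.5 and 13.6 in Mettl14 CKO, 4.87 and 4.67 in Mettl3 control, and 6.28 and 6.93 in Mettl3 CKO.

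**Figure D3:**
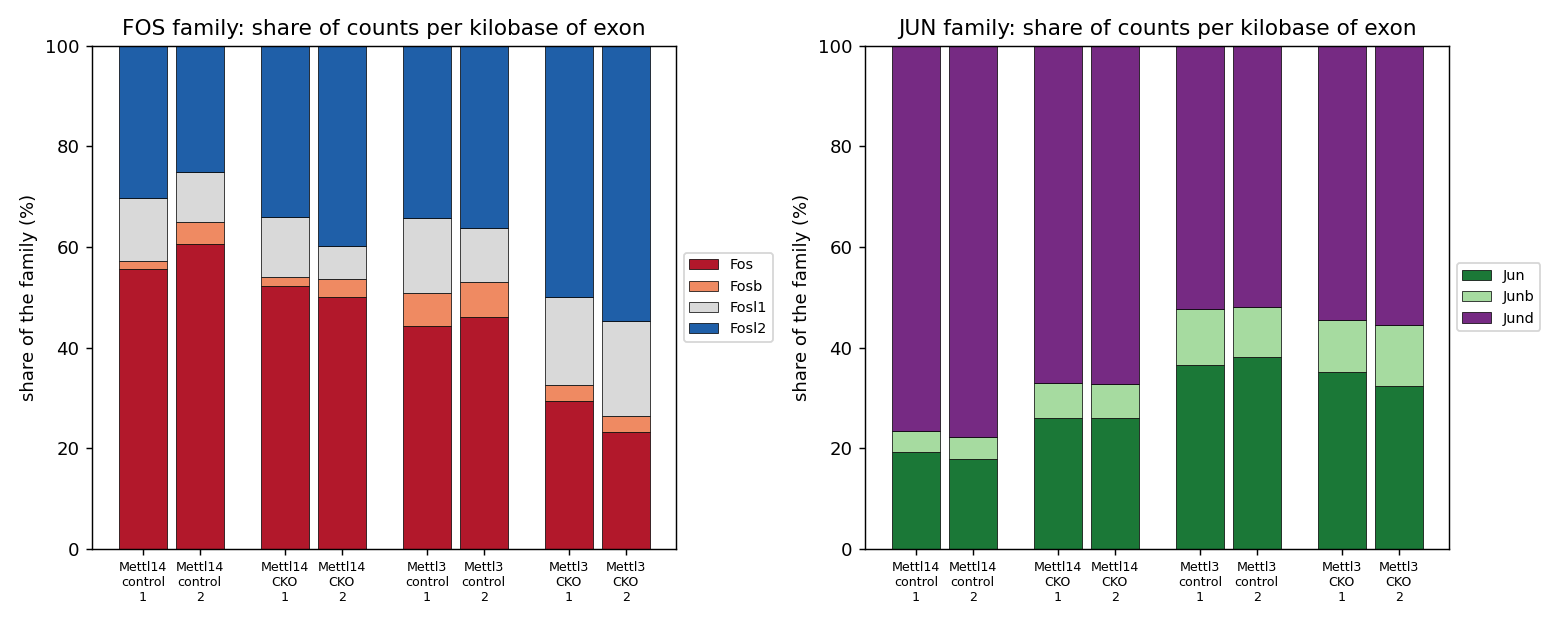
Share of each gene in the summed level per kilobase of exon of the FOS family and of the JUN family (y axis, percent), 1 stacked bar a library. The Fosl2 part reaches 49.9% and 54.8% in the Mettl3 CKO libraries, and the Jund part falls from 76.5% and 77.8% in Mettl14 control to 52.4% and 52% in Mettl3 control.

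Egr1 encodes a zinc-finger transcription factor induced beside Fos. It was at 1.34 and 1.26 CPM in the Mettl14 controls, 1.4 and 1.45 in Mettl14 CKO, 5.75 and 5.92 in Mettl3 control, and 4.46 and 3.09 in Mettl3 CKO, from 20 to 117 reads. The Mettl14 groups are side by side without overlap, and the Mettl3 CKO libraries lie below their controls but far from each other. The fall in Mettl3 CKO, by 0.63 ± 0.20 on the log2 scale (to 0.648 of the control), passed the test (adjusted p = 0.0123) in 10 of 15 alternative settings only. The change was -0.34 (adjusted p = 0.368) without Mettl3 CKO replicate 2, -0.62 (0.0551) without Mettl3 control replicate 1, -0.57 (0.0788) without Mettl3 control replicate 2 and -0.52 (0.0625) with no filter on low counts; in the remaining setting, DESeq2, the adjusted p was NA. In Mettl14 CKO it was 0.13 ± 0.32 (interval -0.51 to 0.77; adjusted p = 0.79), and the difference between the knockouts, 0.76 ± 0.38, was not called (adjusted p = 0.118).

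Ier2, an early-response gene whose product is nuclear, was the only member to fall in Mettl14 CKO. It was at 42.9 and 41.9 CPM in the Mettl14 controls, 20.5 and 18 in Mettl14 CKO, 29.8 and 30 in Mettl3 control, and 32.6 and 30.1 in Mettl3 CKO. Both Mettl14 CKO libraries lie far below all 6 others, and Mettl14 control above them. The fall was 1.14 ± 0.08 on the log2 scale, to 0.454 of the control level (a change of -1.14, adjusted p = 6.57e-28), and stayed between -1.23 and -1.06 over 15 alternative settings. In Mettl3 CKO the change was 0.07 ± 0.07 (interval -0.08 to 0.21; adjusted p = 0.568), or -0.04 with upper-quartile scaling. The difference between the knockouts was -1.21 ± 0.11 (adjusted p = 1.61e-19).

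Dusp1, the MAP kinase phosphatase, was the member with the highest rise in Mettl14 CKO. It was at 35.6 and 35.1 CPM in the Mettl14 controls, 64.9 and 69.5 in Mettl14 CKO, 73.4 and 77 in Mettl3 control, and 96.2 and 91.6 in Mettl3 CKO. The groups do not overlap, and behind the values stand 556 to 1810 reads. It rose 1.9-fold in Mettl14 CKO (0.93 ± 0.06 on the log2 scale, adjusted p = 7.09e-31) and 1.25-fold in Mettl3 CKO (0.32 ± 0.05, adjusted p = 1.39e-08), a difference of 0.61 ± 0.08 (adjusted p = 7.41e-12). Ergic1, the neighbour that shares 11 bases of exon with it on the other strand, also rose in Mettl14 CKO, by 0.72 (adjusted p = 5.8e-27), and changed by 0.1 in Mettl3 CKO (adjusted p = 0.0627).

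The test of the difference between the knockouts thus called 6 of the 10 members, 4 with a higher change in Mettl14 CKO (Fos, Fosb, Jun and Dusp1) and 2 with a lower one (Jund and Ier2). Of all genes 33.2% were called, 12.7% higher and 20.5% lower. Among genes whose average log2 CPM was 3 or more, 55% were called (14.8% higher, 40.2% lower), with a median difference of -0.15. For those with an average from 1 to 3, 18.1% were called (9.57% higher, 8.48% lower). The members' median difference was 0.41, and that of all genes 0.02. Upper-quartile scaling shifts the median of all genes by 0.05 in Mettl14 CKO, -0.12 in Mettl3 CKO and 0.15 in the difference. With it the calls over all genes turn from 3292 higher and 1260 lower to 1293 and 2771 in Mettl3 CKO, and from 2777 and 4461 to 4287 and 2788 in the difference. Relative to these shifts, the members' called changes in Mettl3 CKO kept their sign, with Jun no longer called.

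The controls of the 2 lines already differed in all 10 genes, and for 8 of them by more than either knockout changed them. Mettl14 control was lower in 8 members and higher in 2, while 67.8% of all genes were called in this comparison, 33.6% higher and 34.1% lower (with upper-quartile scaling, which shifts the median of all genes by -0.22, 5642 higher and 9450 lower in place of 7329 and 7430). By abundance, 83.7% of genes whose average log2 CPM was 3 or more were called (57.9% higher, 25.9% lower). Of those with an average from 1 to 3, 58.5% were called (23.7% higher, 34.8% lower). The control libraries did not overlap for any of the 10 members, nor for 83.4% of all genes. In Mettl14 control Fosb was at 0.136 of the Mettl3 control level (log2 difference -2.88 ± 0.32, adjusted p = 7.5e-15). Egr1 was at 0.224 (-2.16 ± 0.25, adjusted p = 7.32e-14), Fosl2 at 0.236 (-2.08 ± 0.09, adjusted p = 2.21e-46) and Fosl1 at 0.262 (-1.93 ± 0.33, adjusted p = 8.58e-08). Junb, Fos, Jun and Dusp1 were lower by less, with log2 differences of -1.44, -1.36, -1.14 and -1.09. Jund and Ier2 went the other way, 1.34-fold and 1.42-fold higher in Mettl14 control (adjusted p = 1.9e-11 and 3.7e-10). Line, culture and the marker levels given above differ together here and cannot be told apart.

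From lowest to highest group, Fosl1, Fosl2, Jun, Junb and Dusp1 shared the order of Mettl14 control, then Mettl14 CKO, Mettl3 control, Mettl3 CKO, with an overlap of neighbours only for the first pair of Fosl1. Fos, Fosb and Egr1 shared the order Mettl14 control, Mettl14 CKO, Mettl3 CKO, Mettl3 control, with an overlap of the first pair for Fos and Fosb. The highest group mean was 7.46 times the lowest for Fosb, 5.91 for Fosl2, 5.04 for Fosl1, 4.49 for Egr1 and 3.75 for Junb, then 2.66 for Dusp1, 2.59 for Jun, 2.57 for Fos, 2.2 for Ier2 and 1.36 for Jund. The genes with the profile most like that of a member over the 8 libraries were sought for the 3 members of widest range among 11993 candidates, by the root mean square difference of centred log2 CPM. Nearest to Fosl2 were Gdpd5 (0.09) and Itpkb (0.1), the latter at group means of 16.5, 22.5, 63.1 and 82.7 CPM. Nearest to Fosl1 were Gad1 (0.18) and Adcy6 (0.2), and nearest to Fosb, at a wider distance of 0.35 each, Angptl7 and the noncoding RNA gene Carmn. All of these share the 8 libraries and the difference between the lines.

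Further genes of the pathway were described from lists, whose counts were not tested against all genes. Of all genes tested, 18% were called higher and 22.4% lower in Mettl14 CKO, and 15.1% and 5.78% in Mettl3 CKO. Among genes whose average log2 CPM was 3 or more, 25.7% were higher and 40.9% lower in Mettl14 CKO (median log2 fold change -0.08). Of the same genes 29.6% were higher and 7.05% lower in Mettl3 CKO (median 0.09). Upstream, 20 genes of the MAP kinase cascades were tested: 1 rose and 11 fell in Mettl14 CKO, with a median log2 fold change of -0.21 against 0.03 for all genes. Mapk9, which encodes the JUN kinase JNK2, fell by 0.70 ± 0.07 in Mettl14 CKO (a change of -0.7, adjusted p = 2.78e-16). It rose by 0.27 ± 0.07 in Mettl3 CKO (adjusted p = 0.00125). In Mettl3 CKO 8 of the 20 rose and 2 fell (4 and 4 with upper-quartile scaling; 0 falls were left without Mettl3 control replicate 2, Mettl3 CKO replicate 1 or Mettl3 CKO replicate 2, and 1 without Mettl3 control replicate 1, either Mettl14 control library or Mettl14 CKO replicate 1), with a median of 0.12. Mapk3, which encodes ERK1, rose by 0.58 ± 0.13 (adjusted p = 0.000326) and Map2k4, a kinase of JNK, by 0.32. Map2k4 changed by -0.26 in Mettl14 CKO (adjusted p = 3.14e-05).

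SRF and its cofactors, which act on the Fos and Egr1 promoters, were 6 genes: 0 rose and 3 fell in Mettl14 CKO, and 5 rose and 0 fell in Mettl3 CKO, at medians of -0.15 and 0.28. These counts depended on single libraries. In Mettl14 CKO 1 fall was left when Mettl14 control replicate 1 or Mettl14 CKO replicate 2 was dropped, and in Mettl3 CKO 3 rises were left without replicate 1 or 2 of Mettl3 control. With upper-quartile scaling 1 gene fell and 1 rose, respectively. Elk1, a ternary complex factor, fell by 0.43 ± 0.11 in Mettl14 CKO (a change of -0.43, adjusted p = 0.000407), and Mrtfa, an actin-regulated SRF cofactor, rose by 0.35 ± 0.07 in Mettl3 CKO (adjusted p = 1.79e-05). Elk1 rose by 0.33 ± 0.10 in Mettl3 CKO (adjusted p = 0.00737), a call lost in 3 of 15 alternative settings. Srf itself changed by -0.29 ± 0.12 in Mettl14 CKO (adjusted p = 0.0403), a call lost in 8 of 15 alternative settings. Among them were those without Mettl14 control replicate 1, Mettl14 CKO replicate 1 and Mettl14 CKO replicate 2. In Mettl3 CKO Srf changed by 0.27 ± 0.10 (adjusted p = 0.035), a call lost in 6 of 15, among them those without Mettl3 control replicate 1 and Mettl3 CKO replicate 1. The difference between the knockouts in Srf was -0.56 ± 0.15 (adjusted p = 0.00197).

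Of 14 tested genes for other AP-1 and basic leucine zipper partners, 2 rose and 6 fell in Mettl14 CKO (median -0.07), and 5 rose and 0 fell in Mettl3 CKO (median 0.15). The latter count was 2 with upper-quartile scaling and 3 without Mettl3 control replicate 1 or Mettl3 CKO replicate 2; of the 2 rises in Mettl14 CKO, 1 was left without Mettl14 control replicate 2. Atf1, a relative of CREB, fell by 0.59 ± 0.07 in Mettl14 CKO (a change of -0.59, adjusted p = 2.96e-12), and Atf4, the factor of the amino acid response, rose by 0.28 in Mettl3 CKO. Atf1 rose by 0.21 ± 0.08 in Mettl3 CKO (adjusted p = 0.0424), a call lost in 6 of 15 alternative settings. Atf4 changed by -0.08 ± 0.04 in Mettl14 CKO (adjusted p = 0.0491). Maf, a large leucine zipper factor, rose from 1.05 to 2.45 CPM in Mettl14 CKO (1.23 ± 0.31, adjusted p = 0.000449).

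The 36 tested immediate-early genes outside the 10 also moved both ways. In Mettl14 CKO 15 rose and 8 fell (5 fell without Mettl14 control replicate 1), with a median of 0.33. Ccn2, a secreted matricellular protein gene, rose from 167 to 274 CPM (0.72 ± 0.03, adjusted p = 6.43e-46) and Hbegf, a ligand of the EGF receptor, from 49.9 to 83.9 CPM (0.75 ± 0.05, adjusted p = 2.12e-27). In Mettl3 CKO 17 rose and 3 fell, with a median of 0.12. With upper-quartile scaling 8 rose and 4 fell, and 0 falls were left without Mettl3 CKO replicate 2, and 1 without any other single library of the Mettl3 line or without Mettl14 control replicate 2. Nr4a1, an orphan nuclear receptor gene, rose there by 0.57 ± 0.09 (adjusted p = 8.72e-08) and Myc by 0.49 ± 0.08 (adjusted p = 1.24e-06). Nr4a1 changed by -0.41 ± 0.12 in Mettl14 CKO (adjusted p = 0.00217). The 3 falls in Mettl3 CKO, Egr3 (-1.83 ± 0.66), Nr4a3 (-0.89 ± 0.32) and Trib1 (-0.27), had adjusted p-values of 0.0348, 0.0368 and 0.0203, and were named after their values were seen.

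Genes that restrain the response, such as dual-specificity phosphatases, EGR1 corepressors and ubiquitin ligases of JUN, were 8: 3 rose and 2 fell in Mettl14 CKO, and 5 rose and 0 fell in Mettl3 CKO (3 and 2 with upper-quartile scaling; 1 fall was called without Mettl3 control replicate 1). Their medians were 0 and 0.25. Dusp4, an ERK phosphatase gene, rose beside Dusp1 in both, by 1.05 ± 0.14 in Mettl14 CKO (adjusted p = 6.27e-11) and 0.65 ± 0.10 in Mettl3 CKO (adjusted p = 6.22e-08). Dusp6, which acts on ERK in the cytoplasm, rose by 0.65 ± 0.09 in Mettl14 CKO (adjusted p = 1.25e-10). Cop1, a ubiquitin ligase of JUN, changed by -0.41 in Mettl14 CKO, a fall. It rose by 0.21 in Mettl3 CKO (adjusted p = 4.59e-06), which was not called with upper-quartile scaling.

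Downstream, 24 genes known as AP-1 targets were tested. In Mettl14 CKO 17 rose and 2 fell (median 0.55), and in Mettl3 CKO 11 rose and 3 fell (median 0.13). With upper-quartile scaling 3 rose and 5 fell in the latter. In Mettl14 CKO Plaur, the urokinase receptor gene, rose from 18.1 to 56.5 CPM (1.64 ± 0.07, adjusted p = 9.43e-47). Cd44, a hyaluronan receptor gene, rose from 31.5 to 67.8 CPM (1.11 ± 0.06, adjusted p = 1.79e-38). Hmga1, a gene for a chromatin architectural protein, went against them (-0.8 ± 0.04). Ezr, a linker of membrane and actin, was among the falls in Mettl3 CKO (-0.4 ± 0.04). In Mettl14 control against Mettl3 control 4 of the 24 were higher and 19 lower, with a median of -1.21. Many AP-1 targets are also expressed by fibroblasts, and the fibroblast markers moved alongside: 13 of 15 rose and 0 fell in Mettl14 CKO (median 1.1), and 5 rose and 2 fell in Mettl3 CKO (median 0.07; 0 fell without Mettl3 CKO replicate 2). Their part in these counts was not tested.

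The remaining marker lists moved as follows. Of the 10 embryonic stem cell markers, 0 rose and 10 fell in Mettl14 CKO (median -0.51), and 2 rose and 4 fell in Mettl3 CKO (median -0.08), where 2 falls were left when any one of the 8 libraries was left out. Of 9 tested primitive endoderm markers 2 rose and 0 fell in Mettl14 CKO (median 0.05), and 3 rose and 1 fell in Mettl3 CKO (median -0.14; 1 and 1 with upper-quartile scaling). Heat shock genes, whose products answer protein damage, were called lower in 9 of 13 and higher in 0 in Mettl14 CKO (median -0.33). In Mettl3 CKO 3 rose and 4 fell (median -0.08; 1 and 7 with upper-quartile scaling), 2 falls being left without Mettl3 control replicate 1 or Mettl3 CKO replicate 1. Their summed level was 24470 to 25180 CPM in Mettl14 control, 15340 to 15530 in Mettl14 CKO, 9152 to 9820 in Mettl3 control and 8243 to 8515 in Mettl3 CKO, a spread between groups that runs against that of Fosl2, Jun, Junb and Dusp1. Not every heat shock gene went that way: 8 of the 13 were higher and 4 lower in Mettl14 control than in Mettl3 control. The part of this spread in the results was not tested.

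**Figure D4:**
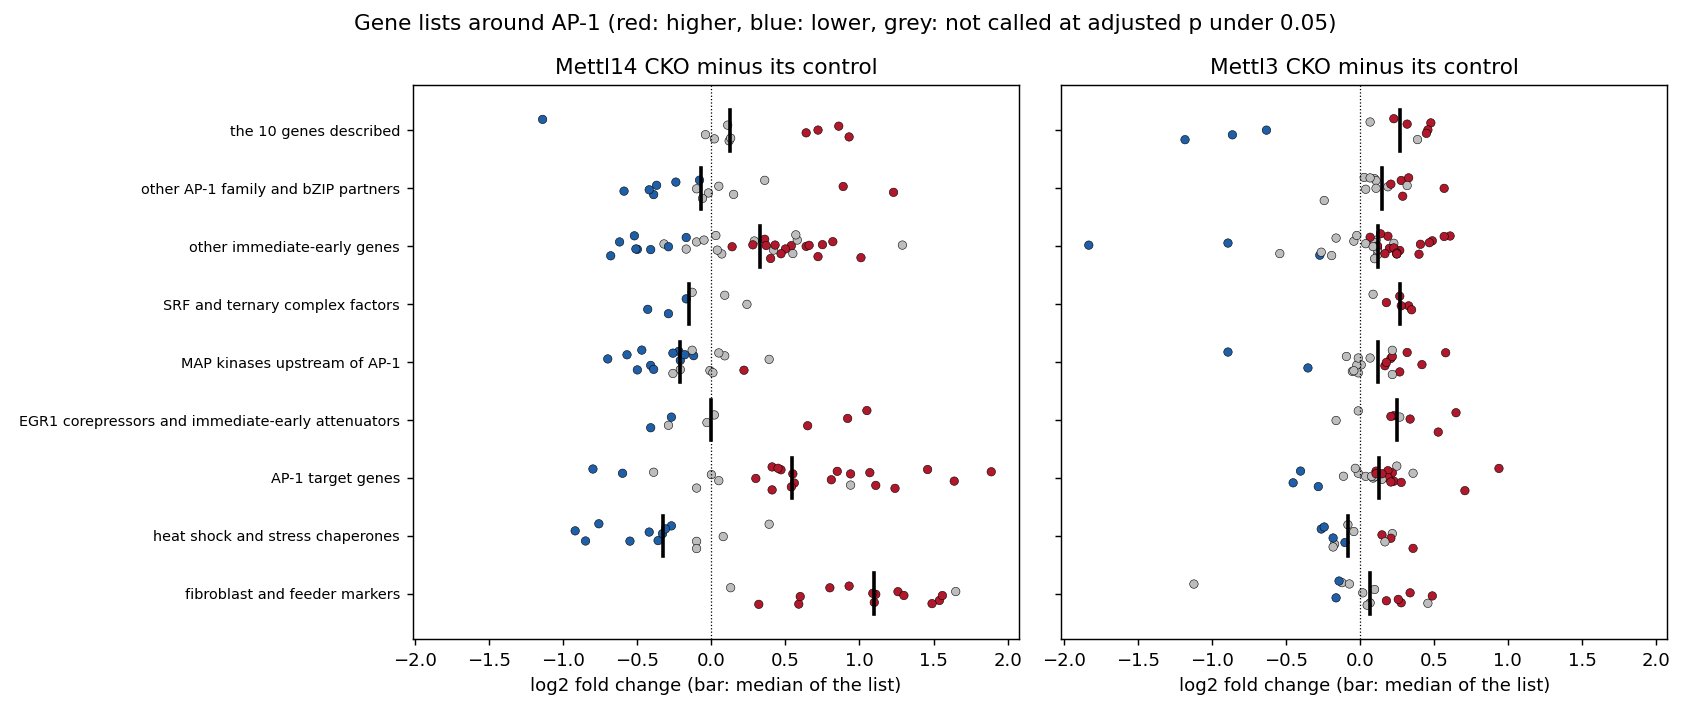
Log2 fold change (x axis) of every tested gene in 9 lists in Mettl14 CKO and in Mettl3 CKO against its own control, with 1 point a gene and a bar at the list's median. The AP-1 targets have medians of 0.55 and 0.13 and the MAP kinases -0.21 and 0.12, while the fibroblast markers have medians of 1.1 and 0.07.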

How the data were processed

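RNA of the nuclear fraction, depleted of ribosomal RNA and made into libraries with a stranded total RNA kit per the labels' protocols, was measured in 8 libraries. The authors deposited raw counts of reads per gene. The submitters' processing notes name HTSeq, HISAT2 2.1.0, Trimmomatic 0.38, CASAVA and mm10; annotation release, strand setting and handling of multiply mapped reads are not given in the sources here. Gene IDs were matched without version to GENCODE M21 (54409 of 54446; 37 unmatched), and 0 lines named no gene. filterByExpr (minimum count 10) kept 21782 genes. edgeR 4.0.16 (R 4.3.3) was fitted to the 8 libraries together (4 group means, 4 residual degrees of freedom; TMM, robust glmQLFit, glmQLFTest; common dispersion 0.000571), with Benjamini-Hochberg adjustment over all genes and a threshold of 0.05. CPM is TMM-scaled; levels are compared between genes per kilobase of union exon. Libraries of a group differed by more than sampling noise (chi-square divided by its degrees of freedom, 1.43 to 2.08) and were kept as 2. Alternatives were RLE and upper-quartile scaling, no filter, only the 2 groups compared, DESeq2 1.42.0, limma-voom (limma 3.58.1), a replicate block and each library left out. Members and lists were chosen with earlier results of these data known. Named genes were all 10 members, up to 4 called genes of smallest p per list and comparison (not all printed), marker levels, and the 2 nearest profiles of the 3 members of widest range among genes whose average log2 CPM was 1 or more.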

Additional observations from a re-analysis of the deposited data

Results flagged for a closer look

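For 6 members the effect of the 2 knockouts differed by the test of the difference itself (the interaction in edgeR's quasi-likelihood fit, Mettl14 change minus Mettl3 change on the log2 scale). That test called 33.2% of all genes, and 55% of those whose average log2 CPM was 3 or more. The difference was 0.97 for Fos, 1.3 for Fosb, 0.41 for Jun and 0.61 for Dusp1, and it was -0.49 for Jund and -1.21 for Ier2. For Ier2, Jun and Dusp1 the larger change was that in Mettl14 CKO. For Fos and Jund it was that in Mettl3 CKO. The Fosb difference lost its call in 8 of 14 alternative settings, among them 6 that left out a single library.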

How the results depend on the processing

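Of 590 recomputed values of single genes, 13 lost the call, 3 gained it and 10 turned sign. The other 564 kept their direction with no call lost or gained, among them 3 DESeq2 values (Fosb, Fosl1 and Egr1 in Mettl3 CKO) that had no adjusted p; all 10 sign changes were in values that had not been called. Of 177 recomputed counts (members called in each direction, and all genes called in either), 174 stayed within 1.5 times the reported one, and all 3 others came from DESeq2: 1 member lower in Mettl3 CKO (Fosb and Egr1 got no adjusted p), 2166 genes called in Mettl3 CKO in place of 4552, and 4714 in the difference in place of 7238. Counts of all genes by direction and counts within lists are not among the 177, and moved more, as given beside them. In Mettl14 CKO the values that turned sign were Fosl1 with RLE scaling (-0.004) and limma-voom (-0.051), and Jund with upper-quartile scaling (0.003). With single libraries left out, the Mettl14 CKO values ran from -0.047 to 0.27 for Fos, -0.483 to 1.16 for Fosb, -0.469 to 0.404 for Fosl1 and -0.104 to 0.014 for Jund. In Mettl3 CKO Ier2 turned to -0.045 with upper-quartile scaling. The cause was not tested.

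The labels do not say whether the replicate numbers pair the libraries. Same-numbered libraries of 2 groups deviated from their group means with correlations of -0.032, 0.072 and 0.11 in the 3 comparisons. With 2 libraries a group, such low values cannot exclude a pairing. With the replicate block the members called stayed at 4 higher and 1 lower in Mettl14 CKO, 5 and 3 in Mettl3 CKO, 4 and 2 in the difference and 2 and 8 between controls, and the genes called numbered 8835, 4620, 7275 and 14754. Depth limits Fosb and Fosl1 in the Mettl14 line most, where 5 to 19 reads per library leave 95% intervals of -0.78 to 1.02 and -0.81 to 0.86 for the change in Mettl14 CKO.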
